A study of Rattus norvegicus with 18 samples.

Results

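The ETS family of transcription factors was examined in rat T-MBP cells, CD4+ T cells reactive to myelin basic protein that cause experimental autoimmune encephalomyelitis (EAE) when transferred into Lewis rats. The members were the 10 genes *Ets1*, *Ets2*, *Fli1*, *Elf1*, *Elf2*, *Elf4*, *Gabpa*, *Etv6*, *Etv3* and *Elk3*, found by gene name in each of 3 tables of 32882 genes. The question was whether other members of the family were expressed at a higher level when *Ets1* was edited. RNA was measured by 3′ bulk mRNA-seq, in which a read marks the 3′ end of a transcript, in 18 libraries with 3 per group. Of the 3 tables, 2 compare *Ets1*-KO with control cells, taken from the parenchyma of the spinal cord or from the spleen. The third compares *Grk2*-KO with control cells of the spleen. *Grk2* encodes a kinase that desensitizes G protein-coupled receptors, and its table served here as an edit of an unrelated gene.

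All cells were sorted on day 3 after transfer into Lewis rats. The labels give the genotype of the controls as WT, and the methods describe them as edited with a non-targeting (NT) guide. The methods describe electroporation of Cas9 with a guide into cultured T-MBP cells that already carried a fluorescent protein, so each KO group was an edited population that can hold unedited alleles. The age of the rats is not given in the labels. For the rats of the whole study, the methods give a range of ages and both sexes. In bulk RNA, fewer cells of a type and less RNA per cell cannot be told apart. For the parenchyma, the study describes KO and control cells as transferred together into the same rats. The labels number the libraries of each group from 1 to 3 without naming the animals. Libraries of the same number are therefore called pairs here without being shown to share a rat. The limma p-values refer to these libraries and draw a gene's error partly or wholly from genes of a similar level.

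ETS factors share a DNA-binding domain, the ETS domain, that recognizes a short core with the letters GGAA. Since many members can bind the same core, members that are present in the same cell can occupy shared sites, and loss of a member may be buffered by another. In T cells, ETS1 is the most studied of the family and is known for its part in T cell development, cytokine production and the restraint of effector programmes. Members also differ in the partners they need and in whether they activate or repress.

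The 2 guides are shown because they define the edited groups. Both are given 5′ to 3′ from the sequences listed with the study. Capitals in the *Ets1* guide mark the 12 bases that it shares with the reverse complement of the forward *Ets1* qPCR primer, and capitals in the primer mark the 3 bases that follow the guide there, which read as an NGG PAM. The forward primer of that assay thus lies over the edited site.
*Ets1* guide: tgctgctcGGAGTTAACAGT
reverse complement of the forward *Ets1* primer: ggagttaacagtGGGacatctg
*Grk2* guide: gatttgtcagaacctccgag

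Each library held 898092 to 2248258 reads on 9635 to 10967 detected genes. In the spleen the *Ets1*-KO libraries were deeper than their controls, with 1909862 to 2248258 against 898092 to 1213485 reads. Replicate 3 of the spleen *Ets1*-KO libraries stood apart from replicates 1 and 2 (chi-square per degree of freedom over genes of 8.95 and 9.23, against 2.83 between those), and fits without it called 0 ETS members as well. Normalized counts are reads divided by a size factor within a table, and limma was run on genes whose mean in a table reached 10 (two-sided, threshold of 0.05 on the Benjamini-Hochberg adjusted p over all genes tested). The cells carried the RNA of T cells, since all 10 T cell markers passed this minimum in each table and their summed normalized count was between 3985 and 5663 per library. *Cd4* itself was low, at 22.7 to 49.1 in the parenchyma and 6.45 to 21.9 in the spleen. Summed counts of 12 myeloid markers reached at most 64.7, those of 10 B cell markers at most 13.1 and those of 8 neural markers at most 93.1, most of the last from *Mbp*.

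The edited gene comes first. *Ets1* (ENSRNOG00000008941, chr8:33816385-33879625 on the plus strand of Rnor_6.0) had normalized counts of 2326, 2573 and 2302 in the parenchymal controls and 2682, 2628 and 2342 in the libraries labelled *Ets1*-KO. The log2 fold change was 0.09 (95% interval -0.05 to 0.22, limma adjusted p = 0.56). In the spleen the controls had 1965, 2038 and 2227 and the libraries labelled *Ets1*-KO 1868, 1763 and 2370, a log2 fold change of -0.06 (-0.30 to 0.17, limma adjusted p = 0.854). The groups overlapped in both tissues, so *Ets1* mRNA was not detectably lower where the label says that it was edited. A read at the 3′ end need not cover the edited site, so these values neither check the labels nor measure the ETS1 protein. The methods describe a check of KO efficiency, from sequenced DNA, for the single-KO lines before their use. An ETS1 western blot of NT and KO cells also comes with the study. Neither result was used here.

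After *Grk2* editing, *Ets1* had 2274, 2481 and 2434 normalized counts in the controls and 2346, 2085 and 2158 in the *Grk2*-KO libraries. The log2 fold change was -0.13 (95% interval -0.26 to 0.00, limma adjusted p = 0.498), with groups that overlapped.

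No member passed the threshold in any of the 3 comparisons. With limma, 0 of 9 tested members were called in the parenchyma, where 5.23% of all 7002 tested genes were called, and 1 member, *Etv3*, had an unadjusted p under 0.05 (16.9% of all genes). In the spleen 0 of 9 were called after *Ets1* editing, with none under the unadjusted threshold, against 2.22% and 14.1% of the 6979 tested genes. In the *Grk2* experiment 0 of 9 were called and *Fli1* alone had an unadjusted p under 0.05, against 1.56% and 10.4% of the 6985 tested genes. edgeR's quasi-likelihood test and DESeq2 on the recovered reads also called 0 of 9 in each table. With edgeR the members under an unadjusted 0.05 were 0 in the parenchyma, 0 in the spleen *Ets1* experiment and 2 (*Ets1* and *Fli1*) in the *Grk2* experiment, and with DESeq2 there were 0 in each. The background of calls was 5.06%, 3.41% and 1.29% of genes with edgeR and 1.29%, 0.716% and 0.129% with DESeq2.

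The intervals say how large a rise these libraries could have missed. In the parenchyma the upper 95% bounds of the fold were 1.05 for *Fli1*, 1.16 for *Elf1*, 1.15 for *Elf2*, 1.17 for *Gabpa*, 0.99 for *Etv3*, 1.08 for *Etv6* and 1.24 for *Elk3*, and reached 1.84 for *Elf4*. In the spleen *Ets1* experiment they were 1.24 for *Fli1*, 1.32 for *Elf1*, 1.19 for *Elf2*, 1.08 for *Gabpa* and 1.22 for *Elk3*, and were wider for *Etv3* at 1.62, *Elf4* at 1.79 and *Ets2* at 2.47. These bounds leave out members below the minimum mean, for which larger rises could be missed. Fitted without the filter, the log2 interval was 0.33 to 2.35 for *Ets2* in the parenchyma. For *Etv6* in the spleen *Ets1* experiment it was -0.83 to 1.22. The median log2 fold change of the tested members was -0.09 in the parenchyma, 0.06 in the spleen after *Ets1* editing and -0.09 in the *Grk2* experiment, beside -0.03, 0.00 and 0.02 over all tested genes. In the parenchyma each gene's error was taken from the trend over all genes of its level, since limma found no finite prior degrees of freedom there. The parenchymal intervals and limma p-values therefore do not reflect the spread of the single gene.

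**Figure D1:**
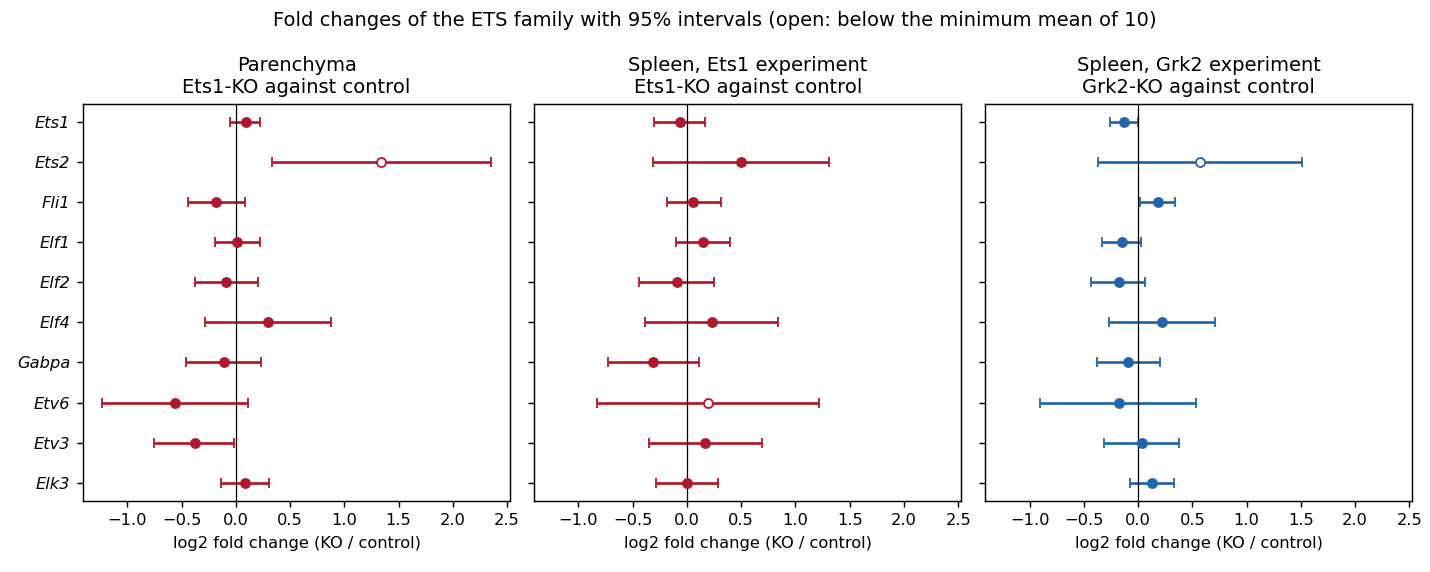
Log2 fold change of KO against control (x axis) for each of the 10 ETS genes (y axis) in the 3 comparisons, with 95% intervals from limma; open points are genes below the minimum mean of 10, fitted without the filter. The intervals of the tested genes cross 0, except for *Etv3* in the parenchyma (-0.75 to -0.02) and *Fli1* in the *Grk2* experiment (0.02 to 0.34), and neither gene passed the adjusted threshold.

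*Ets2* is the closest paralogue of *Ets1*, with which it shares the Pointed domain and activation by MAP kinases. Its gene lies at chr11:36075708-36092495 on the plus strand of Rnor_6.0. It was expressed at a low level. In the parenchyma the controls held 5, 2 and 6 reads and the *Ets1*-KO libraries 10, 11 and 11 reads, which are 4.67, 1.88 and 5.90 against 10.1, 11.1 and 12.5 normalized counts. Every *Ets1*-KO library was above every control, and the ratio of the means was 2.71. The exact permutation test gave p = 0.1, the smallest that 3 against 3 libraries allow. *Ets2* fell below the minimum mean and was not in the main test.

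Without the filter, limma gave *Ets2* a log2 fold change of 1.34 in the parenchyma (95% interval 0.33 to 2.35, unadjusted p = 0.0111, adjusted p = 0.236). edgeR's quasi-likelihood test gave 1.46 (unadjusted p = 0.00574, adjusted p = 0.152). Neither passed the threshold on the adjusted p. Of the 13726 genes in these fits, 1518 had an unadjusted p under 0.05 with limma and 1361 with edgeR. Among the 1109 genes with a mean normalized count from 5 to 10, 7.3% were likewise higher in every *Ets1*-KO library. Summed myeloid markers were 25.4 to 51.1 in the parenchymal controls and 42.5 to 64.7 in the *Ets1*-KO libraries, mostly *Lyz2*, with 3 of 12 (*Mrc1*, *Adgre1* and *Cd163*) at 0 in all 6 libraries. Their part in the *Ets2* reads was not tested.

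In the spleen *Ets2* was higher in each *Ets1*-KO library than in the control of the same number, with 10.9, 10.8 and 7.83 against 15.7, 18 and 9.99 normalized counts. The groups overlapped, and the log2 fold change was 0.50 (95% interval -0.31 to 1.31, limma adjusted p = 0.619). These rest on 25 reads in the controls and 68 in the deeper *Ets1*-KO libraries. In the *Grk2* experiment the controls had 3.25, 5.54 and 8.09 and the *Grk2*-KO libraries 8.73, 9.32 and 7.28 normalized counts, which overlap, a ratio of 1.5 with 16 and 27 reads (exact permutation p = 0.2). *Ets2* was thus higher on average in the KO libraries of all 3 tables, the *Grk2* edit included, and in none of them past the threshold.

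The promoter of *Ets2* is printed because it is the member with the largest ratio, and that of *Gabpa* because it holds the longer ETS motif. Both are 300 bases from RefSeq (GRCr8), 250 before and 50 after the start, on the plus strand, with GGAA and its reverse TTCC in capitals.
*Ets2*, chr11:48490807-48491106: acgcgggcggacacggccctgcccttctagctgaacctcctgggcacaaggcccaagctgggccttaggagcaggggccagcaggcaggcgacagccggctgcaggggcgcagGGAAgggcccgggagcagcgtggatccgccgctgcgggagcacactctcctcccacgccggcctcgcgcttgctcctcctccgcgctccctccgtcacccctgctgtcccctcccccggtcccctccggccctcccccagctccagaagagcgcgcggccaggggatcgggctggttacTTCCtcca
*Gabpa*, chr11:37375014-37375313: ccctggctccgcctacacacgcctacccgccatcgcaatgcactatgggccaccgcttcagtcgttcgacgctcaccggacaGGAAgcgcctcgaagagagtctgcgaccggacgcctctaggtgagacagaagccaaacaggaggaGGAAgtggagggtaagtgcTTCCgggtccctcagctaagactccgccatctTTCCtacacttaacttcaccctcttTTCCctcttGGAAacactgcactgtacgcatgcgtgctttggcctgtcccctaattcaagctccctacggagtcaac
The *Ets2* window holds the 4-letter core 2 times and the *Gabpa* window 6 times, counting both strands. Promoters were found for 7 of the 10 members, in 8 windows of which *Elf2* has 2; none was found for *Ets1*, *Fli1* and *Etv6*. The core occurs in 95.8% of all 33469 promoters, with a median of 3, and in all 8 of these windows. The longer CCGGAA (reverse TTCCGG) occurs in 15% of all promoters and in 1 of the 8 windows, that of *Gabpa*, and CCGGAAGT in 3.81% of all and in none of the 8. A match of letters is a description and not a bound site.

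*Fli1*, of the ERG branch of the family and a regulator of blood cell genes, is the neighbour of *Ets1* on chromosome 8 (chr8:33543257-33661049, minus strand). In the parenchyma it had 144, 153 and 128 normalized counts in the controls and 142, 119 and 114 in the *Ets1*-KO libraries. It was lower in each of the 3 pairs, with overlapping groups and a log2 fold change of -0.18 (95% interval -0.44 to 0.08, limma adjusted p = 0.517). In the spleen the values were 276, 298 and 296 against 270, 314 and 327, a log2 fold change of 0.06 (-0.18 to 0.31, adjusted p = 0.86). The difference between the effects of *Ets1* editing in the 2 tissues was -0.24 (-0.58 to 0.10, adjusted p = 0.571).

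With *Grk2* edited, *Fli1* had 415, 451 and 389 normalized counts in the controls and 460, 474 and 482 in the *Grk2*-KO libraries, which did not overlap. The log2 fold change was 0.18 (95% interval 0.02 to 0.34, limma adjusted p = 0.409). Groups that do not overlap were found for 12.2% of tested genes in this table and for 3 of the 9 members, *Fli1* upwards and *Elf1* and *Elf2* downwards. In the spleen *Ets1* experiment they were found for 16.9% of genes and 2 of 9 members, *Elf1* upwards and *Gabpa* downwards, and in the parenchyma for 18.4% of genes and 0 of 9.

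**Figure D2:**
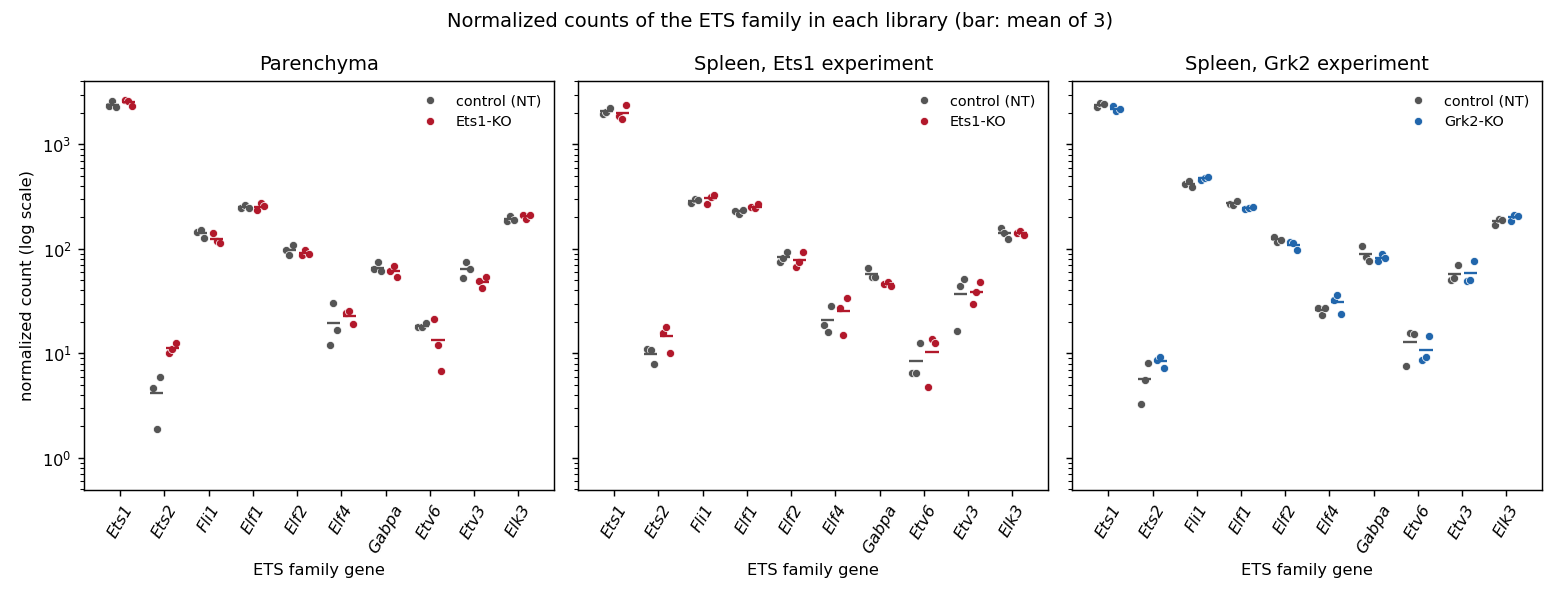
Normalized counts (y axis, log scale) of each ETS gene (x axis) in every library, with grey points for control, red for *Ets1*-KO and blue for *Grk2*-KO libraries and a bar at the mean of 3. *Ets1* lies between 1763 and 2682 in every library and *Ets2* between 1.88 and 18, where the parenchymal groups stand apart.

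The ELF branch holds *Elf1*, *Elf2* and *Elf4*. *Elf1*, an activator expressed in lymphocytes, had 248, 263 and 244 normalized counts in the parenchymal controls and 234, 274 and 255 in the *Ets1*-KO libraries, a log2 fold change of 0.01 (95% interval -0.19 to 0.22). In the spleen it had 230, 218 and 238 against 249, 244 and 270. Every *Ets1*-KO library was above the controls there, by 0.15 on the log2 scale (-0.10 to 0.40, limma adjusted p = 0.623). After *Grk2* editing it had 267, 265 and 286 against 241, 246 and 249, every *Grk2*-KO library below the controls, with a log2 fold change of -0.15 (-0.33 to 0.03, adjusted p = 0.597). The effects of the 2 edits in the spleen differed by 0.30 (0.00 to 0.60, limma adjusted p = 0.386), which did not pass the threshold.

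*Elf2* was between 66.4 and 131 normalized counts in all 18 libraries. Its log2 fold changes were -0.09 in the parenchyma (95% interval -0.38 to 0.20), -0.09 in the spleen after *Ets1* editing (-0.44 to 0.25) and -0.18 after *Grk2* editing (-0.43 to 0.06). *Elf4*, known to restrain the proliferation of CD8 T cells, was the ELF gene with the fewest reads, between 12.1 and 36.2 normalized counts. Its means were higher in all 3 KO groups, by 0.30 (-0.28 to 0.88), 0.23 (-0.39 to 0.84) and 0.22 (-0.27 to 0.71) on the log2 scale. The *Elf4* groups overlapped in each table, and the limma adjusted p was 0.672, 0.794 and 0.819.

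*Gabpa* encodes the DNA-binding subunit of GABP, which pairs with a GABPB subunit and controls mitochondrial and housekeeping genes. In the parenchyma it had 63.5, 74.3 and 60.9 normalized counts against 61.7, 68.7 and 53.3. In the spleen it had 65.6, 53.8 and 53.3 in the controls and 46.6, 47.8 and 43.7 in the *Ets1*-KO libraries, which did not overlap, with a log2 fold change of -0.31 (95% interval -0.73 to 0.11, limma adjusted p = 0.519). The value in the *Grk2* experiment was -0.09 (-0.38 to 0.20). Its partners *Gabpb1* and *Gabpb2* were tested in each table and neither was called.

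*Etv6* and *Etv3* encode repressors. *Etv3* was lower in each parenchymal *Ets1*-KO library than in the control of its number, with 53.2, 74.3 and 63.9 against 49.5, 42.5 and 53.3 normalized counts. The groups met at their edges, and the log2 fold change was -0.38 (95% interval -0.75 to -0.02, limma adjusted p = 0.262), and was -0.18 without replicate 2. It was 0.17 in the spleen after *Ets1* editing (-0.35 to 0.69) and 0.04 in the *Grk2* experiment (-0.31 to 0.38). The difference between tissues was -0.55 (-1.20 to 0.09, adjusted p = 0.46), the largest of the 8 members tested for it, and it did not pass.

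*Etv6* was near the minimum, with 17.7, 17.9 and 19.7 normalized counts in the parenchymal controls and 21.2, 12.1 and 6.80 in the *Ets1*-KO libraries. The *Ets1*-KO libraries spread far more than the controls, and the log2 fold change of -0.56 had an interval from -1.23 to 0.11 (limma adjusted p = 0.411). It was -0.96 without replicate 1 and -0.14 without replicate 3. In the spleen *Ets1* experiment *Etv6* was under the minimum, with 20 reads in the controls and 49 in the *Ets1*-KO libraries, and had a ratio of means of 1.21 (exact permutation p = 0.9).

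*Elk3* encodes a ternary complex factor, which binds DNA together with serum response factor. Its normalized counts were 184 to 208 in the parenchymal controls and 193 to 212 in the *Ets1*-KO libraries, and 125 to 159 against 135 to 149 in the spleen. The log2 fold changes were 0.08 (95% interval -0.14 to 0.31) and 0.00 (-0.29 to 0.29). After *Grk2* editing *Elk3* was higher in each of the 3 pairs, by 0.13 (-0.07 to 0.33, limma adjusted p = 0.715), with overlapping groups.

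The effects were also compared directly. Between the parenchyma and the spleen, 0 of 8 members differed in their response to *Ets1* editing, with differences from -0.55 to 0.20 and 0 under an unadjusted 0.05 (limma on the log2 ratios of the pairs, where 2.1% of 6520 genes were called and 13.8% were under the unadjusted 0.05). Between the *Ets1* and *Grk2* edits in the spleen, 0 of 8 differed and *Elf1* alone was under an unadjusted 0.05, with differences from -0.22 to 0.30 (1.94% and 12.9% of 6490 genes). edgeR called 0 of 8 in each, with 0 and 1 under an unadjusted 0.05.

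The levels of the members, as RPM (reads scaled to the library's total on genes) in the control libraries, ran from 2.94 for *Ets2* in the parenchyma to 1842 for *Ets1* in the *Grk2* experiment. These are reads at 3′ ends, which were not divided by transcript length. *Ets1* led with 1688 ± 72.8 (SD, n = 3) in the parenchyma, 1547 ± 57.7 in the spleen controls of the *Ets1* experiment and 1842 ± 68.8 in those of the *Grk2* experiment. By mean RPM over all libraries of a table, control and KO together, *Ets1* was the 29th, 53rd and 31st most abundant of the tested genes. The next in the parenchyma was *Elf1* at 177 ± 4.27, followed by *Elk3* at 137 ± 5.77, *Fli1* at 99.6 ± 8.02 and *Elf2* at 69.2 ± 8.59, each with a range apart from its neighbours. *Gabpa* at 46.6 ± 4.09 and *Etv3* at 44.8 ± 6.50 overlapped, as did *Elf4* at 13.7 ± 6.23 and *Etv6* at 13.0 ± 0.846, and *Ets2* was last at 2.94 ± 1.48.

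In both spleen control groups *Fli1* stood second, ahead of *Elf1* and *Elk3*. It had 216 ± 12.5 RPM in the *Ets1* experiment and 322 ± 28.2 in the *Grk2* experiment, while *Elf1* had 170 ± 2.27 and 210 ± 5.44. From *Fli1* to *Gabpa* the order of the genes was the same in the 2 spleen groups, and neighbouring ranges did not overlap. *Etv3* overlapped *Elf4* in the first, and *Etv6* and *Ets2* overlapped at the bottom in both. The tables were made separately, so levels are set side by side here and were not tested between tissues.

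**Figure D3:**
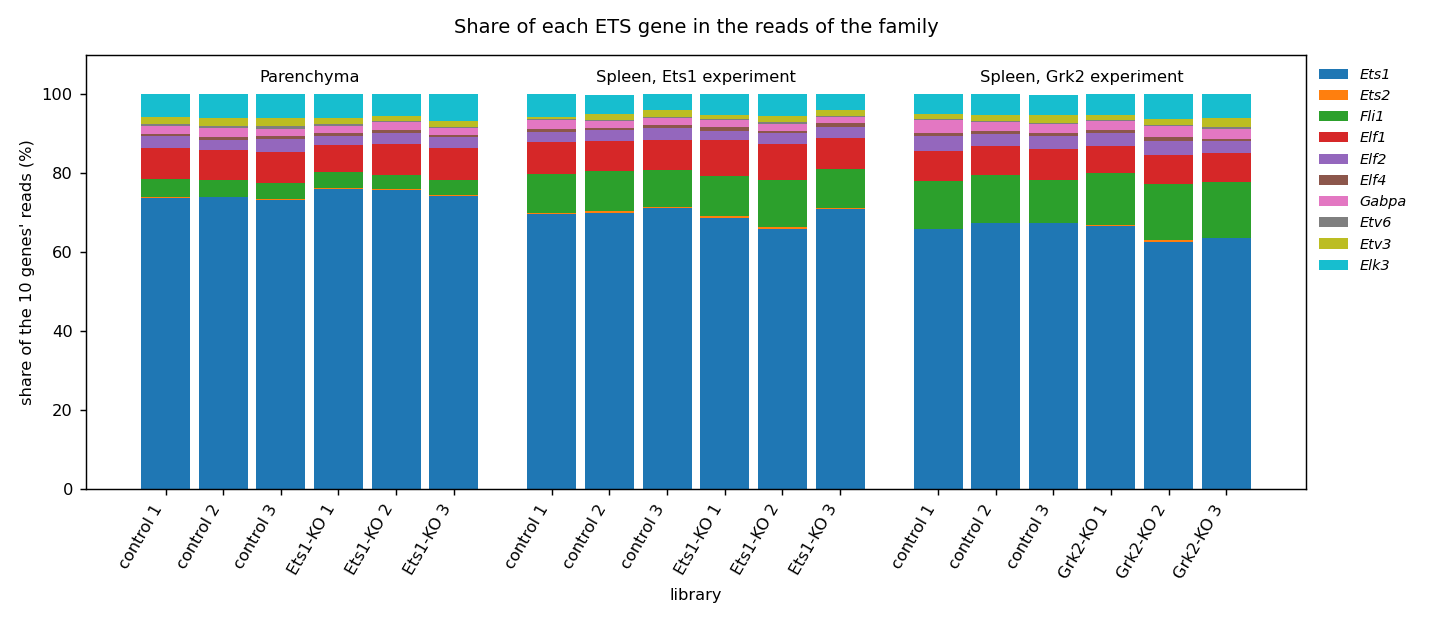
Share of each ETS gene in the reads of the 10 genes (y axis, percent) in every library (x axis), stacked in the order of the legend. *Ets1* makes up most of each bar, 73.3 to 73.9% in the parenchymal controls and 74.2 to 76.1% in the *Ets1*-KO libraries, and *Fli1* takes a larger share in the spleen.

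*Ets1* held 73.7% ± 0.321 (SD, n = 3) of the reads of the 10 genes in the parenchymal controls and 75.3% ± 1.00 in the *Ets1*-KO libraries. In the spleen the shares were 70.2% ± 0.777 and 68.5% ± 2.56, and in the *Grk2* experiment 66.8% ± 0.808 in the controls and 64.3% ± 2.06 in the *Grk2*-KO libraries. The other 9 members summed to 590 to 626 RPM in the parenchymal controls and 577 to 600 in the *Ets1*-KO libraries. In the spleen the sums were 644 to 675 and 651 to 700, and in the *Grk2* experiment 889 to 932 and 915 to 957. These summed levels overlapped between groups in each table. The *Ets1* share was higher in every parenchymal *Ets1*-KO library (74.2 to 76.1%) than in the controls (73.3 to 73.9%), so that the other 9 members held a smaller share there. In the spleen *Ets1* experiment the *Ets1* shares overlapped (69.6 to 71.1% in the controls, 65.8 to 70.9% in the *Ets1*-KO libraries). They also overlapped in the *Grk2* experiment (65.9 to 67.3% and 62.7 to 66.6%). Differences in share were not tested.

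Set against *Ets1* itself, *Fli1* had 5.55 to 6.18 reads per 100 *Ets1* reads in the parenchymal controls and 4.54 to 5.28 in the *Ets1*-KO libraries, a lower ratio in each. In the *Grk2* experiment the ratio was higher in each *Grk2*-KO library, 19.6 to 22.8 against 16.0 to 18.3, and in the spleen *Ets1* experiment the ranges of 13.3 to 14.6 and 13.8 to 17.8 overlapped. The ratio did not overlap between groups for 4 of 9 members in the parenchyma (*Ets2* upwards, *Fli1*, *Gabpa* and *Etv3* downwards), beside 18.2% of tested genes, for 0 of 9 in the spleen after *Ets1* editing (10.1%) and for 2 of 9, *Ets2* and *Fli1*, after *Grk2* editing (18.7%). Each such pattern has an exact permutation p of 0.1. The shares of tested genes cover only genes that reached the minimum mean. *Ets2* in the parenchyma and the *Grk2* experiment, and *Etv6* in the spleen *Ets1* experiment, were counted as members but lie below it. All ratios of a table share the *Ets1* reads as denominator, so members that move the same way are not separate results. *Ets1* was itself higher in each parenchymal *Ets1*-KO library than in the control of its number.

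The family has other genes, of which 17 were looked up, and all were found in the tables. Only *Elk1*, *Elk4* and *Erf* passed the minimum, in each table, and 0 of 3 were called by limma. Of the 17, 9 were at 0 in all 6 libraries in the parenchyma, 7 in the spleen *Ets1* experiment and 11 in the *Grk2* experiment. *Spi1*, the factor of myeloid cells, had at most 2.02 normalized counts in the parenchyma and was listed at 0 in both spleen tables, and *Spib*, known from B cells, had at most 2.19.

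*Erf*, a repressor controlled by ERK, had 16.4, 9.68 and 12.5 normalized counts in the spleen controls and 23.3, 17.4 and 25.0 in the *Ets1*-KO libraries, which did not overlap. Its log2 fold change was 0.73 (95% interval 0.04 to 1.43, limma adjusted p = 0.328), and 0.43 in the parenchyma (-0.03 to 0.90, adjusted p = 0.343). *Elk1*, a ternary complex factor like *Elk3*, was higher in each *Grk2*-KO library, with 39.3, 36.2 and 30.0 against 17.3, 22.2 and 24.3, a log2 fold change of 0.70 (0.21 to 1.20, limma adjusted p = 0.179). *Elk4* was the most abundant of the 3, between 190 and 305 normalized counts, and its log2 fold changes lay between -0.17 and -0.05.

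ETS factors act with partners, and 22 genes of partners, co-regulators and upstream kinases were listed, of which 19 were tested in each table. In the parenchyma 2 of 19 were called (5.23% of all genes), *Tbx21* upwards and *Jun* downwards, and in the spleen 2 of 19 after *Ets1* editing (2.22%), *Fos* and *Junb*, both upwards. After *Grk2* editing 0 of 19 were called by limma (1.56% of all genes) and 4 had an unadjusted p under 0.05 (10.4%). *Tbx21*, the T-bet gene of the T helper 1 programme, had 538, 546 and 558 normalized counts in the parenchymal controls and 655, 709 and 728 in the *Ets1*-KO libraries, a log2 fold change of 0.35 (95% interval 0.18 to 0.51, limma adjusted p = 0.00169). In the spleen it was -0.05 (-0.29 to 0.19), and the difference between tissues, 0.40, did not pass (adjusted p = 0.13). The *Tbx21* call was lost without replicate 2 (adjusted p = 0.107).

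Of the 4 listed AP-1 genes, *Fos* and *Junb* were called in the spleen after *Ets1* editing, *Jun* in the parenchyma and *Jund* in no table (limma adjusted p = 0.514 in the parenchyma, 0.875 in the spleen after *Ets1* editing and 0.914 after *Grk2* editing). *Fos* had 278, 232 and 248 normalized counts in the spleen controls and 472, 438 and 468 in the *Ets1*-KO libraries, a log2 fold change of 0.86 (95% interval 0.63 to 1.10, limma adjusted p = 0.000166). *Junb* had 175, 175 and 118 against 265, 216 and 225, a log2 fold change of 0.61 (0.32 to 0.89, adjusted p = 0.0172). Both sets of libraries stood apart. In the parenchyma *Fos* had a log2 fold change of 0.35 (0.09 to 0.60, adjusted p = 0.0953) and *Junb* of 0.26 (0.05 to 0.48, adjusted p = 0.16). The *Junb* effect differed between the *Ets1* and *Grk2* edits in the spleen by 0.69 (0.35 to 1.04, adjusted p = 0.0217), as the only listed partner, and no partner differed between tissues past the threshold (lowest adjusted p = 0.0866, for *Fos*). The *Junb* call in the spleen was lost without the block (adjusted p = 0.0719), with DESeq2 (0.0901) and without replicate 1 or 3, its difference between edits without the block (0.164) and without any of the replicates, and the *Fos* call without replicate 1 (0.0553).

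*Jun* went down in the parenchyma, from 184, 193 and 180 normalized counts to 171, 118 and 128, a log2 fold change of -0.43 (95% interval -0.67 to -0.19, limma adjusted p = 0.0122). The *Jun* call was lost without the block (adjusted p = 0.0765), without the filter (0.0719, and 0.0711 with edgeR), with quantile normalization (0.0669), with DESeq2 (0.46), with eBayes without a trend (0.381) and without replicate 2 (0.409) or 3 (0.0971).

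Genes known to be bound or controlled by ETS1 in lymphocytes were listed as 9 targets, chosen with earlier results of these libraries known, so their direction is not independent evidence. Of the 9, *Prf1*, *Il2ra*, *Il2rb* and *Runx3* were tested in each table, and *Il7r*, the interleukin 7 receptor gene often named as an ETS target, was listed at 0 in all 18 libraries. Its entry lies on the sequence KL567908.1 and not on a chromosome, and whether the RNA was absent was not tested. In the parenchyma 3 of the 4 tested targets were called, all upwards, beside 5.23% of all genes. *Prf1*, the gene of the pore-forming protein perforin, had 1505, 1349 and 1274 normalized counts in the controls and 2703, 2831 and 2847 in the *Ets1*-KO libraries, a log2 fold change of 1.02 (95% interval 0.89 to 1.16, limma adjusted p = 1.78e-45).

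The interleukin 2 receptor genes rose as well. *Il2ra* had 668, 638 and 667 against 1044, 1031 and 958 normalized counts, a log2 fold change of 0.62 (0.46 to 0.77, limma adjusted p = 1.89e-12), and *Il2rb* rose by 0.39 (0.24 to 0.54, adjusted p = 3.58e-05). For these 3 genes every *Ets1*-KO library was above every control. *Runx3*, which is also on the partner list, had 286, 295 and 308 against 353, 390 and 340 and did not pass (0.28, adjusted p = 0.0635).

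In the spleen 0 of 4 targets were called after *Ets1* editing by limma (2.22% of all genes) and 1, *Prf1*, had an unadjusted p under 0.05 (14.1%), with a log2 fold change of -0.35 (95% interval -0.64 to -0.06, adjusted p = 0.239). The effects differed between tissues by 1.38 for *Prf1* (1.07 to 1.69, limma adjusted p = 2.49e-07) and by 0.72 for *Il2ra* (0.43 to 1.01, adjusted p = 0.00347), and not past the threshold for *Il2rb* (0.45, adjusted p = 0.0617). Without replicate 1 the *Il2ra* difference did not pass (adjusted p = 0.0936), and eBayes without a trend called none of these partner and target genes. Without a trend, the limma adjusted p in the parenchyma was 0.167 for *Prf1* and 0.249 for *Il2ra*. After *Grk2* editing *Il2ra* was called downwards, at -0.42 (-0.61 to -0.22, adjusted p = 0.00512), with groups that overlapped, a call that was lost without the block (adjusted p = 0.327), with DESeq2 (0.752) and without replicate 1 or 2.

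**Figure D4:**
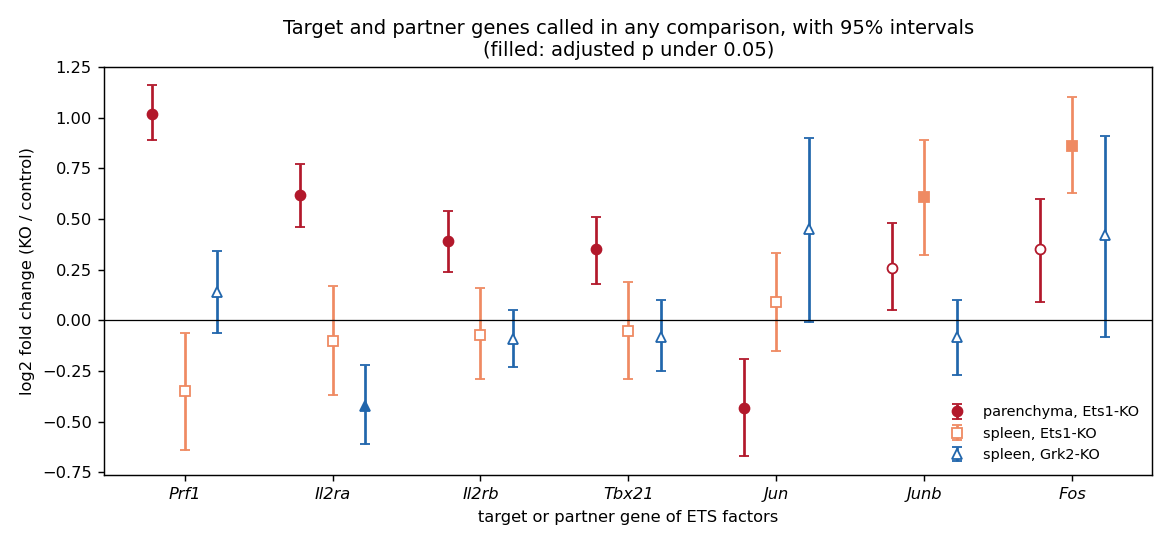
Log2 fold change of KO against control (y axis) with 95% intervals for the 7 target and partner genes called in any of the 3 comparisons (x axis), filled where the limma adjusted p was under 0.05. In the parenchyma *Prf1* stands highest at 1.02, while its value in the spleen after the same edit is -0.35.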

How the data were processed

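According to the methods, the authors aligned reads of the 3′ libraries to Rnor_6.0 with STAR (2.7.2b), without trimming, counted them with HTSeq-count (1.0.0) and computed DESeq2 (2.11.40.7) size factors. The deposited signal values are reads divided by the library's size factor, in 3 tables of 32882 genes. All positive values were multiples of the value of 1 read (tolerance 0.01), and reads were recovered from them. The parenchymal *Ets1*-KO libraries 1 and 2 had the same value of 1 read, 1.011, and whether this is chance or an entry error could not be settled. The edgeR, DESeq2, quantile and upper quartile fits rescale these libraries. Reads lack molecular identifiers, so depth speaks of counting error only. The authors' own comparisons (fold changes, p-values, pathways) and 8 human columns were not used.

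Genes with a mean of at least 10 were fitted on log2(normalized count + 1), a scale that understates changes of low genes, with limma 3.58.1 (lmFit, eBayes with a trend, R 4.3.3) and replicate number as a block, following the authors' batch correction per animal. Effects were compared on the log2 ratios of the pairs. All tests were two-sided, with Benjamini-Hochberg adjustment over all tested genes. Single values had exact permutation tests. Alternatives included edgeR 4.0.16 (quasi-likelihood) and DESeq2 1.42.0 on recovered reads. The fits were also run on simulated reads with planted changes and the same relative spread for every gene. That run cannot show whether the intervals and p-values hold for genes whose spread differs.

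The members and gene lists were chosen with earlier results of these data known. All 10 members are described, with the other ETS genes that passed the minimum and each listed partner or target gene that was called. *Runx3*, *Gabpb1*, *Gabpb2*, *Spi1*, *Spib*, *Il7r* and *Jund* were named after their values were seen. Whether 3′ counting used strand is not given in the sources used here.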

Additional observations from a re-analysis of the deposited data

How the results depend on the processing

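No ETS member was called in any of the 5 comparisons under any of the alternatives run (lowest adjusted p 0.243, leaving aside *Ets2* below the minimum mean). Of 517 values of members, 504 were not counted as turned. A main value that rounds to 0.00 could not be counted as turned. Such values crossed 0 when a replicate was left out. They were *Elk3* in the spleen *Ets1* experiment (-0.05 to 0.08), *Elf2* between tissues (-0.13 to 0.15) and *Elf4* between edits (-0.22 to 0.37). The 13 counted as turned all came when 1 replicate was left out. Leaving out each replicate gave, in the parenchyma, -0.01 to 0.06 for *Elf1* and -0.02 to 0.57 for *Elf4*. In the spleen *Ets1* experiment it gave -0.14 to 0.01 for *Ets1* and -0.15 to 0.35 for *Etv3*. In the *Grk2* experiment it gave -0.19 to 0.11 for *Gabpa*, -0.37 to 0.06 for *Etv6* and -0.02 to 0.07 for *Etv3*. Differences between tissues were -0.09 to 0.18 for *Elf4* and -0.06 to 0.21 for *Elk3*, and between edits -0.04 to 0.15 for *Ets1*, -0.04 to 0.16 for *Elf2* and -0.20 to 0.33 for *Etv3*. Below the minimum mean, *Etv6* in the spleen *Ets1* experiment ranged from -0.19 to 0.49, and *Ets2* in the parenchyma from 0.97 to 1.52 and with a pseudocount of 5 was 0.85. Without the filter its adjusted p was 0.236 with limma and 0.152 with edgeR. Among the other ETS genes, *Elk1* in the parenchyma was 0.07 with edgeR and 0.08 with edgeR without a filter, and -0.46 to 0.50 when a replicate was left out. The corresponding ranges were -0.21 to 0.02 for *Elk4* in the parenchyma, -0.19 to 0.27 for *Erf* in the *Grk2* experiment, and, for differences between tissues, -0.74 to 0.02 for *Elk1* and -0.13 to 0.23 for *Elk4*. The cause of these turns was not tested.

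Counts over all genes moved more. In the order parenchyma, spleen *Ets1*, *Grk2*, tissue difference and difference between edits, limma called 366, 155, 109, 137 and 126 genes. Without the replicate block it called 200, 71, 19, 47 and 43, and 0 members in each. Same-numbered libraries deviated together only weakly (correlations from -0.00 to 0.18). In the parenchyma they had -0.00 to 0.16, against -0.16 to 0.04 for libraries of different numbers. The same ranges were 0.08 to 0.18 against -0.12 to 0.05 in the spleen *Ets1* table. In the *Grk2* table they were 0.01 to 0.14 against -0.13 to 0.02. The labels do not tie numbers to rats, so the co-transfer that the study describes for the parenchyma is not shown to pair these numbers. eBayes without a trend called 3, 0, 0, 2 and 0. No filter gave 212 and 242 in the *Ets1* tables, edgeR 238 in the spleen *Ets1* table, and DESeq2 90, 50 and 9 in the 3 tables. With a replicate left out the counts ran from 163 to 277, 3 to 232, 6 to 50, 28 to 112 and 19 to 57, and the 3 genes came without replicate 1 of the spleen *Ets1* table. Upper quartile scaling moved the split of higher and lower calls from 159 and 207 to 183 and 164 in the parenchyma, from 71 and 84 to 115 and 99 and from 65 and 44 to 34 and 42 in the spleen tables, and from 47 and 79 to 65 and 72 between edits. The cause was not tested. *Ets2* rested on 13 reads in the parenchymal controls and 32 in the *Ets1*-KO libraries.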
